A study of Mus musculus with 3 samples.

Results

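The regions described here are the peaks of 2 chromatin immunoprecipitation libraries from NE4C cells, KHcy and H3K4me3, sorted by whether they overlap each other. NE4C is an established mouse neural stem cell line, and no treatment other than routine culture is named for these libraries. The KHcy antibody recognises lysine carrying homocysteine at any site, and the H3K4me3 antibody recognises trimethylated lysine 4 of histone H3. Another library of the same cells, H3K79Hcy, marks homocysteine on lysine 79 of histone H3, and every KHcy or H3K4me3 peak that overlapped one of its 7387 peaks was taken out first. The remaining peaks of each list, called kept, were then divided into those that overlapped the other list by at least 1 bp, called shared, and those that did not, called KHcy only and H3K4me3 only. This left 24691 of the 34026 peaks of the 3 lists. There were 5693 KHcy only peaks, 662 shared KHcy peaks, 691 shared H3K4me3 peaks and 17645 H3K4me3 only peaks. Each antibody had 1 library and there are no replicates, so no p-value was computed, and the 95% Wilson intervals given for shares cover counting error only.

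Homocysteine is an amino acid formed from methionine, and its thiolactone reacts with the amino group of lysine without an enzyme, which leaves proteins homocysteinylated. Excess homocysteine is a known risk factor for neural tube defects. H3K4me3 is placed by the SET1 and MLL methyltransferases and removed by KDM5 demethylases, and it is best known as a mark of the first nucleosomes after the start of active genes, above all at starts rich in CpG dinucleotides.

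The deposited KHcy peaks covered 15.2 Mb with 276864 reads and the H3K4me3 peaks 41.2 Mb with 787308 reads, and the total reads of the libraries are not in the lists. As a check of the H3K4me3 label, the starts of 3034 of 22380 protein-coding genes (13.6%) lay within 1000 bp of a deposited H3K4me3 peak. For KHcy the number was 357 (1.6%). The H3K4me3 list is also the larger, and this comparison does not allow for its size. Among the groups, a start was within 1000 bp of a KHcy only peak for 167 genes (0.746%), of a shared KHcy peak for 120 (0.536%), of a shared H3K4me3 peak for 127 (0.567%) and of an H3K4me3 only peak for 2827 (12.6%). Of 20 housekeeping genes, 3 were in reach of an H3K4me3 peak by this measure (Npm1, Polr2a and Rplp0), or 15.0% of the list. That is close to the 13.6% of all genes, so the check did not set housekeeping genes apart. Of 19 neural stem cell genes, 7 were (Sox9, Otx2, Six3, Vim, Lhx2, Nes and Msi1), and of 20 marker genes of other cell types 0 were.

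The sequences just before the starts of 7 genes give examples of the starts that the groups covered. They are from the genes of the 2 highest scores in each group among peaks with a protein-coding gene start inside, with 1 printed for shared H3K4me3 peaks. Each line gives the 200 bases before the start of the gene in the mouse genome build mm9, read 5′ to 3′ on the strand of the gene, with CpG dinucleotides in capitals. Fasl (chr1:163718627-163718826, minus strand) and Olfr285 (chr15:98143980-98144179, minus) had a KHcy only peak over the start. Slc3a2 (chr19:8797860-8798059, minus) and Pdgfra (chr5:75548116-75548315, plus) had a shared KHcy peak. Tcfap2d (chr1:19092903-19093102, plus) had a shared H3K4me3 peak. Gm4868 (chr5:126329111-126329310, minus) and Hoxc9 (chr15:102806670-102806869, plus) had an H3K4me3 only peak. For Pdgfra 115 of the 200 bases lay inside the peak, and for the others all 200 did.
Fasl: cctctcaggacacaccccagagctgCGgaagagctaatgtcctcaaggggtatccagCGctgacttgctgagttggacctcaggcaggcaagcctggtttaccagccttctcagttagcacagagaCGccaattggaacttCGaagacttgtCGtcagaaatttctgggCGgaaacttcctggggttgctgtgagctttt
Olfr285: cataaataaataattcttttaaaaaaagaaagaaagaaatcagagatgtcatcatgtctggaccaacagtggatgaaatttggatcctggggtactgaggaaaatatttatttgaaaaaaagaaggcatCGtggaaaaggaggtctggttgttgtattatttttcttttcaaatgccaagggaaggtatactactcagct
Slc3a2: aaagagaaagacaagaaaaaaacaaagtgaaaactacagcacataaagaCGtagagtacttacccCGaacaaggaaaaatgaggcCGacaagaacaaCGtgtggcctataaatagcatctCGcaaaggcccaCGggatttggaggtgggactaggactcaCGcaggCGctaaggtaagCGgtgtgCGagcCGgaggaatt
Pdgfra: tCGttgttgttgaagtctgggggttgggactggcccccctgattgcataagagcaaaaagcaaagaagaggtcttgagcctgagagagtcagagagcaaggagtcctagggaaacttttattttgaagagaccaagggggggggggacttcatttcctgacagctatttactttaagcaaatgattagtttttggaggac
Tcfap2d: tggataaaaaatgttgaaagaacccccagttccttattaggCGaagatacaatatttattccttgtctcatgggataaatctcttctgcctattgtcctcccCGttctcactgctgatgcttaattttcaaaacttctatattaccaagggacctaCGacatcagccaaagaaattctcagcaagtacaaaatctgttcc
Gm4868: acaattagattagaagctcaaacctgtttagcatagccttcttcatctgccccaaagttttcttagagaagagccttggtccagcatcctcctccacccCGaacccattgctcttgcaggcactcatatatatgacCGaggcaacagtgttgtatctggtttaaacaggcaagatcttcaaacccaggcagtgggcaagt
Hoxc9: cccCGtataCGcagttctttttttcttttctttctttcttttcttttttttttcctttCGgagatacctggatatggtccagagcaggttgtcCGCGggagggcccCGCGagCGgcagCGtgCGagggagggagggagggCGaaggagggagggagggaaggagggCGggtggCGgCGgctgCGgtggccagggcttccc

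The stretches held 6 CpG for Fasl, 1 for Olfr285, 11 for Slc3a2, 1 for Pdgfra, 3 for Tcfap2d, 2 for Gm4868 and 15 for Hoxc9. The examples of the shared KHcy and of the H3K4me3 only peaks thus included 1 start with more than 10 and 1 with fewer. Both KHcy only examples had fewer than 10. With 2 sequences per group, and 1 for shared H3K4me3 peaks, the examples do not describe the groups. Over all 22380 protein-coding genes the 200 bases before the start held a median of 7 CpG (quartiles 2 and 15), 90.4% of the genes had at least 1, and 42.5% had 10 or more. The CpG dinucleotide reads the same on both strands. Among the 80 genes with a start in a shared KHcy peak, 57 had 10 or more (71.2%, 60.5 to 80.0%), with a median of 14. Among the 1080 genes with a start in an H3K4me3 only peak the share was 61.8% (58.8 to 64.6%), and among the 66 in a shared H3K4me3 peak it was 57.6% (45.6 to 68.8%). Among the 89 genes with a start in a KHcy only peak it was 42.7% (32.9 to 53.1%), close to that of all genes. The interval of the shared KHcy peaks did not overlap that of the KHcy only peaks, whereas it overlapped that of the H3K4me3 only peaks.

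Of the 7300 KHcy peaks, 945 (12.9%, 12.2 to 13.7%) were removed for overlapping H3K79Hcy, and of the 6355 that remained 662 (10.4%, 9.69 to 11.2%) overlapped an H3K4me3 peak. On the other side 1003 of 19339 H3K4me3 peaks (5.19%) were removed and 691 of 18336 (3.77%, 3.50 to 4.05%) overlapped a KHcy peak. The shared peaks formed 705 pairs, of which 597 joined 1 KHcy peak with 1 H3K4me3 peak. The pairs overlapped by a median of 1200 bp (quartiles 800 and 1600), which was a median of 61.5% of the KHcy peak and 54.5% of the H3K4me3 peak, and their centres were a median of 800 bp apart. In 145 pairs the KHcy peak lay wholly within the H3K4me3 peak and in 96 pairs the reverse. In all, 856.8 kb were covered by both lists, or 6.64% of the bases in KHcy peaks and 2.24% of those in H3K4me3 peaks. Since overlap chose these groups, these values describe the choice.

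Close to the limit of the choice, 53 pairs overlapped by 200 bp, the smallest overlap that peaks made of whole 200 bp windows allow. Their medians were 3.44 reads per 200 bp for the KHcy peaks and 3.78 for the H3K4me3 peaks. Just outside it, 75 KHcy only peaks lay at most 200 bp from an H3K4me3 peak, 38 of them touching it, and their median was likewise 3.44 reads per 200 bp. Within 1000 bp there were 191 such peaks, while the median KHcy only peak was 38.8 kb (quartiles 12.8 and 110 kb) from the nearest H3K4me3 peak. A further limit is the prior removal, since 47 KHcy only peaks and 34 H3K4me3 only peaks overlapped a peak of the other list that had been taken out.

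The KHcy peaks were alike in size whether or not they were shared, whereas shared H3K4me3 peaks included more of the wide, high scoring peaks of their list. The median width was 2000 bp in each of the KHcy groups, with quartiles of 1600 and 2400 bp in both. It was 2000 bp (1600 and 2800) in shared H3K4me3 peaks and 1800 bp (1400 and 2400) in H3K4me3 only peaks. Wider peaks have more room to overlap another list, and the overlap chose the groups, so these values are given without a test. Peaks wider than 5000 bp made up 4 of the KHcy only peaks (0.0703%), 2 of the shared KHcy peaks (0.302%), 36 of the shared H3K4me3 peaks (5.21%, 3.79 to 7.13%) and 367 of the H3K4me3 only peaks (2.08%, 1.88 to 2.30%).

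**Figure D1:**
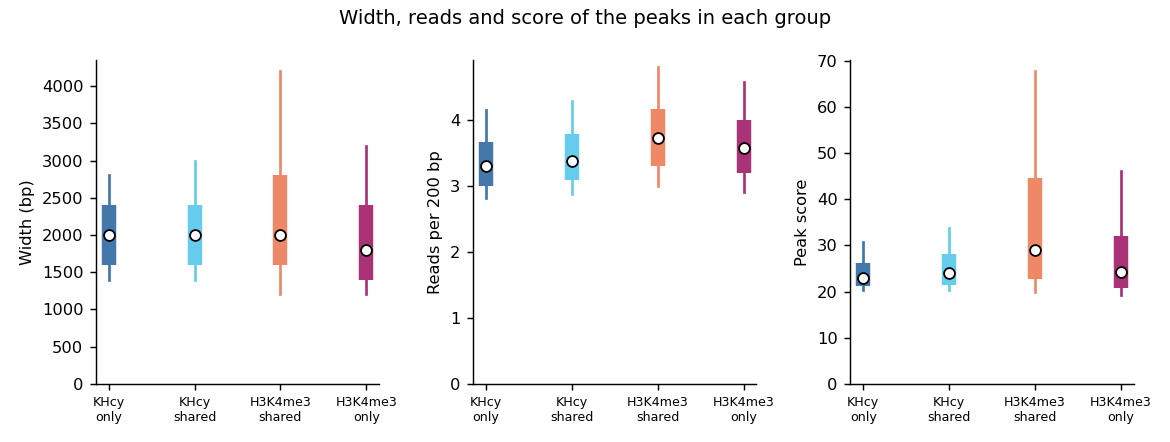
Width in bp, reads per 200 bp and peak score of the 4 groups, from 5693 KHcy only, 662 shared KHcy, 691 shared H3K4me3 and 17645 H3K4me3 only peaks of 1 library per antibody. Circles are medians, thick bars run between the quartiles and thin lines between the 10th and 90th percentiles. The KHcy groups nearly coincide, and the thin line of shared H3K4me3 peaks reaches highest in width and score.

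Read density differed little between the groups of a list. The median was 3.30 reads per 200 bp in KHcy only peaks (quartiles 3.00 and 3.67) and 3.38 in shared KHcy peaks (3.09 and 3.78). It was 3.71 in shared H3K4me3 peaks (3.29 and 4.17) and 3.57 in H3K4me3 only peaks (3.19 and 4.0). Reads of the 2 libraries can be compared only after division by the background of each, which was 1.49 reads per 200 bp for KHcy and 1.38 for H3K4me3. In these units the medians were 2.22-fold for KHcy only, 2.27-fold for shared KHcy, 2.69-fold for shared H3K4me3 and 2.59-fold for H3K4me3 only peaks. Across the 597 pairs of single peaks, the Spearman correlation of the KHcy and the H3K4me3 reads per 200 bp was 0.176, a description over peaks of the same 2 libraries. The score, which grows with both reads and width, had medians of 23.0, 24.0, 28.9 and 24.3 in the same order, and it exceeded 50 in 20 KHcy only (0.351%), 6 shared KHcy (0.906%), 136 shared H3K4me3 (19.7%, 16.9 to 22.8%) and 1464 H3K4me3 only peaks (8.30%, 7.90 to 8.71%).

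Shared peaks held a gene start inside more often than unshared peaks of either list, and KHcy only peaks did so about as often as stretches of the genome of the same length. The start of a protein-coding gene lay inside 73 of the shared KHcy peaks (11.0%, 8.86 to 13.6%) and 59 of the shared H3K4me3 peaks (8.54%, 6.68 to 10.9%). It lay inside 985 of the H3K4me3 only peaks (5.58%, 5.25 to 5.93%) and 83 of the KHcy only peaks (1.46%, 1.18 to 1.80%). Of all windows of 2000 bp in the genome 1.65% hold a start, and of windows of 1800 bp 1.49% do. A shared KHcy peak touches an H3K4me3 peak by definition, so part of its distance from KHcy only peaks in this measure follows from the choice, while the intervals of both shared groups also lay above that of the H3K4me3 only peaks. The separation from H3K4me3 only peaks was lost when starts up to 1000 bp from the peak were counted, with 16.3% of the shared KHcy (13.7 to 19.3%), 17.4% of the shared H3K4me3 (14.7 to 20.4%) and 15.0% of the H3K4me3 only peaks (14.4 to 15.5%). By a centre within 1000 bp of a start, shared KHcy peaks (11.5%, 9.27 to 14.1%) remained above H3K4me3 only peaks (8.10%, 7.71 to 8.52%), whereas shared H3K4me3 peaks (8.39%, 6.55 to 10.7%) did not. The removed KHcy peaks had a start inside in 5.08% of cases and the removed H3K4me3 peaks in 6.08%.

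**Figure D2:**
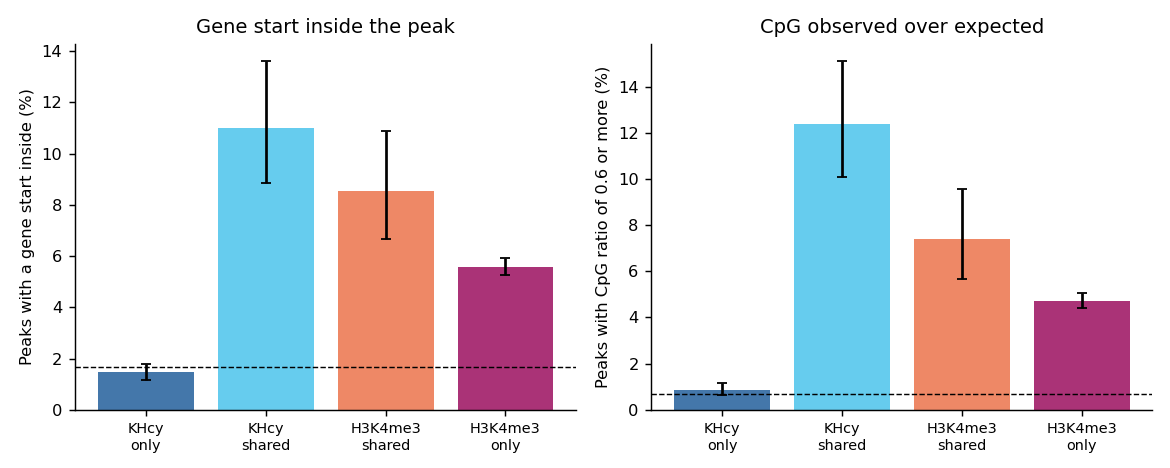
Left, the percentage of peaks with the start of a protein-coding gene inside, and right, the percentage with an observed over expected CpG ratio of 0.6 or more, for the 4 groups. Bars are shares of the peaks of 1 library, error bars are 95% Wilson intervals (counting error only) and dashed lines are windows of 2000 bp over the genome (1.65% and 0.691%). In both panels shared KHcy peaks are highest, at 11.0% and 12.4%, and KHcy only peaks are close to the dashed line.

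The order of the KHcy groups held within classes of width. In 4 classes divided at 1400, 2000 and 2800 bp, the share with a start ran from 1.04 to 2.02% in KHcy only peaks and from 7.87 to 12.7% in shared KHcy peaks. For H3K4me3 the classes overlapped more. In the narrowest class 3.6% of the shared (1.55 to 8.14%) and 3.64% of the unshared H3K4me3 peaks (3.15 to 4.19%) held a start, and in the widest 16% (11.1 to 22.6%) and 7.84% (6.81 to 9.02%) did. The intervals of the H3K4me3 groups were apart in the widest class and overlapped in the other 3. Among peaks wider than 5000 bp, 8 of 36 shared (22.2%, 11.7 to 38.1%) and 20 of 367 unshared H3K4me3 peaks (5.45%, 3.56 to 8.27%) held a start. On each of the 11 chromosomes with 100 or more KHcy peaks, the share with a start was higher in shared KHcy peaks (6.06 to 22.0%) than in H3K4me3 only peaks (2.09 to 9.54%) and in KHcy only peaks (0 to 2.96%). On the other 9 chromosomes together, 2 of 61 shared KHcy peaks (3.28%) and 7 of 231 KHcy only peaks (3.03%) held a start, below the 101 of 1951 H3K4me3 only peaks (5.18%), so the order of the other chromosomes was not seen there, and a difference between the KHcy groups was not detectable at these counts.

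**Figure D3:**
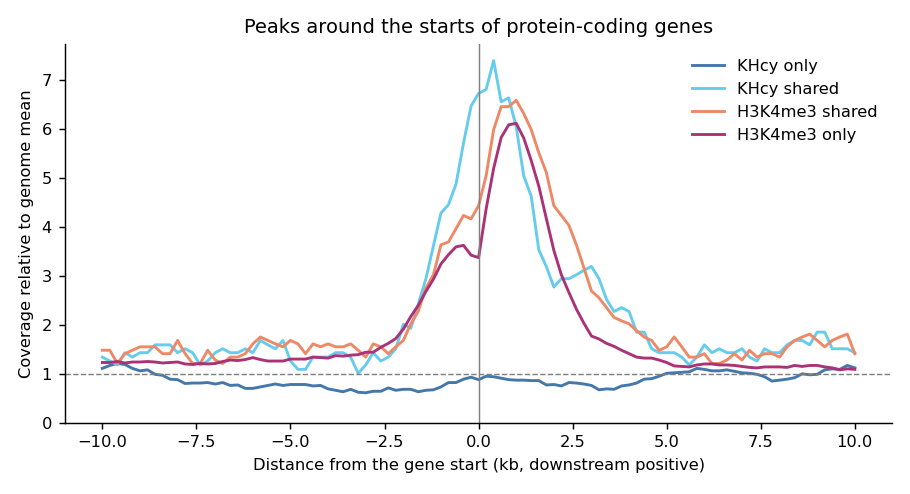
Share of protein-coding gene starts covered by a peak of each group at distances from 10 kb before to 10 kb after the start, divided by the mean coverage of that group over the genome. Shared KHcy peaks are highest 400 bp after the start (7.39 times the genome mean), both H3K4me3 groups are highest 1000 bp after it, H3K4me3 only peaks dip at the start (3.37), and KHcy only peaks stay between 0.613 and 1.21.

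Around the gene starts, the KHcy and H3K4me3 parts of the shared regions were not placed alike. Shared KHcy peaks covered the start itself 6.72 times as often as the genome mean and were highest 400 bp after it, at 7.39 times. Shared H3K4me3 peaks stood at 4.43 times at the start and H3K4me3 only peaks at 3.37 times, and both were highest 1000 bp after it, at 6.58 and 6.11 times. KHcy only peaks stood at 0.880 times at the start and were lowest within 10 kb at 0.613 times. Of the 80 gene starts inside shared KHcy peaks, 37 (46.2%, 35.7 to 57.1%) lay outside the H3K4me3 peak that the KHcy peak overlapped, by a median of 316 bp, and 43 lay inside it. In 42 cases a KHcy peak bridged more than 1 H3K4me3 peak. In 2 of the 42 a gene start lay in the gap, those of Ldb2, a cofactor of LIM homeodomain proteins, and of Hoxc10, a homeodomain protein of posterior patterning. The KHcy peak over Kdm5a, an H3K4 demethylase, also bridged 2 H3K4me3 peaks, and the starts of Kdm5a and of its neighbour Ccdc77 on the other strand both lay in the first of them.

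By distance to the nearest gene start the shared groups could hardly be told apart, and KHcy only peaks lay farthest away. The centre of the peak was a median of 56.7 kb (quartiles 20.2 and 161 kb) from the nearest gene start for KHcy only, 29.2 kb (5.35 and 84.7) for shared KHcy, 28.8 kb (5.34 and 85.0) for shared H3K4me3 and 34.7 kb (7.10 and 122) for H3K4me3 only peaks, compared with 68.3 kb for the genome. Shares within 5000 bp of a start were 6.24% for KHcy only, 24.5% for shared KHcy, 24.3% for shared H3K4me3 and 21.6% for H3K4me3 only peaks, with 7.85% for the genome. Most of these near peaks of shared and H3K4me3 groups lay downstream, with 59 upstream and 103 downstream for shared KHcy, 50 and 118 for shared H3K4me3 and 1280 and 2535 for H3K4me3 only peaks. KHcy only peaks were more even, with 162 and 193. By their centre, 5.16% of the KHcy only peaks were in exons and 42.7% (41.4 to 44.0%) in introns, the highest intron share of the groups, compared with 3.01% and 35.8% of the genome. Introns held 36.4% of the shared KHcy, 38.1% of the shared H3K4me3 and 35.3% of the H3K4me3 only peaks.

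The starts of 89 genes lay in KHcy only peaks (0.398% of 22380 protein-coding genes), 80 in shared KHcy peaks (0.357%), 66 in shared H3K4me3 peaks (0.295%) and 1080 in H3K4me3 only peaks (4.83%). A start lay in a shared peak of either list for 103 genes (0.46%) and in both for 43 (0.192%). Among KHcy only peaks over a start, the highest score belonged to Fasl, the ligand of the Fas death receptor, with 54 reads in 1200 bp (chromosome 1, 163718001 to 163719200), which was 6.06-fold over background. The next were Olfr285, an odorant receptor (63 reads, 2.49-fold), Cpa6, a carboxypeptidase (58 reads, 2.79-fold), Ttll3, a ligase that adds glycine to tubulin (58 reads, 2.30-fold), Klrc1, a receptor of natural killer cells (58 reads, 2.17-fold), and Gbp2, a GTPase induced by interferon (49 reads, 2.36-fold). Fasl stood apart from the others in fold. Of the 89 genes, 16 had an H3K4me3 only peak in the body, a share close to the 18.6% of all protein-coding genes. The other 73 had no kept H3K4me3 peak anywhere in the body.

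Shared KHcy peaks with the highest scores over a start lay at Slc3a2, the heavy chain of amino acid transporters (60 reads, 2.38-fold, chromosome 19, 8795801 to 8799200), and Pdgfra, a receptor of platelet derived growth factor (49 reads, 2.75-fold, chromosome 5, 75548201 to 75550600). They were followed by Ldb2 (48 reads, 2.48-fold), Bag2, a cochaperone of Hsp70 (53 reads, 2.38-fold), Olfr381 (52 reads, 2.50-fold) and Hoxc10 (60 reads, 1.92-fold). These folds, 1.92 to 2.75, were within the range of the KHcy only peaks named above or below it. The 80 starts included those of the developmental regulators Pax2, Pax3, Otx2, Msx1, Mitf, Fev and Lfng and of the ribosomal protein genes Rps12, Rps27a, Rpl4 and Rpl32, which were picked from the list of starts after it was seen.

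On the H3K4me3 side, the shared peaks of highest score over a start lay at genes of transcription factors of the embryo. They were Hoxc11 (234 reads in 12600 bp, 2.69-fold), Tcfap2d and Tcfap2b of the AP-2 family (219 reads in 10600 bp and 150 reads in 6400 bp), Foxb1, a forkhead factor (181 reads in 9400 bp), and Lmx1b, a LIM homeodomain factor (133 reads in 6200 bp). Cyp3a11, a cytochrome P450 of the liver, was the exception, with 218 reads in 11800 bp. H3K4me3 only peaks of highest score over a start lay at the predicted gene Gm4868 (339 reads in 16000 bp), Hoxc9 (242 reads in 11600 bp), a second entry named Tmem132b (185 reads in 7800 bp), Klrb1a, a receptor of natural killer cells (173 reads in 7200 bp), and Tbx3 and Lbx1, a T-box and a homeodomain factor (161 reads in 9000 bp and 136 reads in 6200 bp). All of these were 2.59- to 3.48-fold over background, and all were at least 6200 bp wide, above the upper quartiles of width of their groups. Several also exceeded the upper quartile of their group in fold, which was 3.02 for shared H3K4me3 and 2.90 for H3K4me3 only peaks, among them Tcfap2b (3.39-fold) and Klrb1a (3.48-fold).

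Gene bodies gave a different picture from gene starts. KHcy only peaks overlapped 1756 gene bodies (7.85%), shared KHcy peaks 268 (1.2%), shared H3K4me3 peaks 266 (1.19%) and H3K4me3 only peaks 4170 (18.6%). Genes with a KHcy only peak in the body were long, with a median of 70.4 kb, compared with 38.4 kb for shared KHcy, 40.0 kb for shared H3K4me3 and 31.4 kb for H3K4me3 only peaks and 15.4 kb for all protein-coding genes. Of genes longer than 50 kb, 22.3% had a KHcy only peak in the body, and of shorter genes 3.85%. KHcy only and H3K4me3 only peaks met in 893 genes, which were 50.9% of the former set and 21.4% of the latter. Of the 1756 genes with a KHcy only peak in the body, 835 had no kept H3K4me3 peak there. For comparison, 31.7% of all genes longer than 50 kb and 15.0% of shorter genes had an H3K4me3 only peak in the body.

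The KHcy only peaks of highest score in a gene body were those of Fasl and those in Rrp12, a ribosome assembly factor (91 reads in 4800 bp), Cep192, a centrosome protein (86 reads in 4800 bp), and Ldlrad3, of the LDL receptor family (96 reads in 6200 bp). Those of shared KHcy peaks lay in Cpa6 (85 reads in 5800 bp), Dnahc8, a dynein heavy chain (67 reads in 3800 bp), Ano2, a calcium activated chloride channel (63 reads in 3600 bp), and Lhx3, a LIM homeodomain factor (58 reads in 3400 bp). Genes with the most KHcy only peaks were A830018L16Rik (21 peaks in 561.8 kb), Cpa6 (17 in 395.2 kb) and Frmd4b (16 in 330.7 kb). The most shared KHcy peaks were in Ano2 (11 in 349.7 kb, beside 54 H3K4me3 only peaks), Dnahc8 (9 in 250.9 kb) and Atp2b2, a calcium pump (4 in 296.9 kb), which also held the most shared H3K4me3 peaks (13, 9 and 4). H3K4me3 only peaks were most frequent in 3 genes of cell surface proteins with 0 KHcy only peaks, the cadherin Cdh13 (223 peaks in 1041 kb), Tmem132d (133 in 675.1 kb) and Sdk1 (95 in 974.1 kb). Among shared H3K4me3 peaks the highest score in a gene body was in Tmem132b (291 reads in 13600 bp), followed by Hoxc11, Tcfap2d and Hoxb3 (210 reads in 10200 bp). The highest of all, 579.7, belonged to an H3K4me3 only peak in Tmem132c (654 reads in 30400 bp), and the others of that group after Gm4868 lay in Tmem132d (258 reads in 12400 bp) and Cdh13 (275 reads in 15000 bp). At the centre of the Cdh13 peak 65.0% of the words of 31 bases had further copies in the genome.

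Among enzymes that write or erase H3K4 methylation, Kdm5a had the start in shared peaks of both lists (1 of 16 genes), and Mll2 had it in an H3K4me3 only peak. At Kdm5a, the KHcy peak held 34 reads (2.08-fold, chromosome 6, 120313201 to 120315400), and the H3K4me3 peaks held 39 reads (2.57-fold) and 28 reads (3.38-fold). The body of Kdm5a also held 7 KHcy only peaks and that of Mll3 held 4. None of the 16 starts was in a KHcy only peak. Counts of 1 in 16 are too small to be set against the background shares.

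Of the 19 neural stem cell genes, Otx2, a homeodomain factor of the forebrain, had the start in a shared KHcy peak (47 reads, 2.11-fold) and a shared H3K4me3 peak (35 reads, 2.53-fold). Sox9, Six3 and Nes had theirs in an H3K4me3 only peak, and 9 of the 19 genes (47.4%) had such a peak in the body, against 18.6% of all genes. Lhx2 alone had KHcy only peaks in the body (2). H3K4me3 only peaks were thus the most frequent kind in these genes. The same order held over all genes, with 7.85% for KHcy only and 1.2% for shared KHcy peaks.

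Of 20 genes needed for neural tube closure, Pax3, a paired box factor of the dorsal neural tube, was the single one with its start in a shared peak (KHcy 30 reads, 2.24-fold; H3K4me3 52 reads, 2.90-fold). KHcy only peaks lay in the body of 8 (40.0%, against 7.85% of all genes), and H3K4me3 only peaks in that of 7 (35.0%, against 18.6%), with Fzd6, a Wnt receptor, the 1 gene in both. These genes were long, with a median of 76.6 kb. Of the 12 longer than 50 kb, 5 had a KHcy only peak (41.7%, beside 22.3% of all genes of that length) and 5 an H3K4me3 only peak (41.7%, beside 31.7%). Of the 8 shorter genes 3 had a KHcy only peak and 2 an H3K4me3 only peak. Cecr2, a chromatin remodelling factor, held 8 KHcy only peaks with 286 reads in all (2.16- to 2.60-fold), Smarca4, the ATPase of the BAF complex, held 3 (89 reads) and Dnmt3b, a DNA methyltransferase, held 1 (58 reads). Enah, an actin regulator, Lrp6, a Wnt coreceptor, and Ctnnb1, the Wnt effector beta-catenin, held 1 each, and Cobl, an actin nucleator, held 2. The paper names Cecr2, Smarca4 and Dnmt3b among its genes with H3K79Hcy peaks. The KHcy only peaks given here lay outside all peaks of the list labelled H3K79Hcy. Of the 8 genes, Cobl and Fzd6 also had a kept H3K4me3 peak in the body and the other 6 had none. Among all 1756 genes with a KHcy only peak in the body, 835 had none and 50.9% had an H3K4me3 only peak. With 8 genes, the list cannot be set apart from these shares. Cecr2 did have a deposited H3K4me3 peak within 1000 bp of its start, which was removed for overlapping H3K79Hcy. Its lack of a kept H3K4me3 peak therefore does not mean that it had no H3K4me3 peak. The list was set with results for some of its genes known, so its count is a description.

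In homocysteine and folate metabolism, 0 of 20 genes had a shared peak, which 1.25% of all genes had in the body. Mthfd1l, a mitochondrial folate enzyme, held 5 KHcy only peaks (168 reads), while Shmt1, which makes one-carbon units from serine, and Blmh, the hydrolase of homocysteine thiolactone, held 1 each. These were 3 of the 20 genes (15.0%, against 7.85% of all genes), a count too small for a comparison. The starts of Mthfd1l and of Ahcy, which forms homocysteine, lay in H3K4me3 only peaks. Of the 20 housekeeping genes, none had a start inside a peak of any group, but Gapdh and Npm1 had shared peaks in the body. At Gapdh the KHcy peak held 34 reads (1.76-fold) and the H3K4me3 peak 53 reads (3.84-fold). Of 21 annotated entries for axon guidance genes, Epha4 and Unc5b had a start in an H3K4me3 only peak (9.52%, against 4.83% of all genes), and 7 had such a peak in the body (33.3%, against 18.6% of all genes and 31.7% of those longer than 50 kb). These genes had a median length of 320.6 kb, and Unc5c, Epha5 and Ephb1 had 1 KHcy only peak each. Their share of 14.3% stood beside 7.85% of all genes and 22.3% of those longer than 50 kb. No start of the 20 marker genes of other cell types was in a peak of any group, and among those with a peak in the body Col1a1 had 1 H3K4me3 only peak.

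The Hox genes, which set position along the body axis, had the highest share of members with a shared peak among the lists. Of 40 annotated entries, 3 had the start in a shared KHcy peak (Hoxb8, Hoxc10 and Hoxd10, 7.50%, against 0.357% of all genes) and 4 in a shared H3K4me3 peak (Hoxb8, Hoxb7, Hoxc11 and Hoxd10, against 0.295%). For 11 the start lay in an H3K4me3 only peak (27.5%, against 4.83%), and for 0 in a KHcy only peak. In the body, 26 entries (65.0%, against 18.6%) held an H3K4me3 only peak and 0 a KHcy only peak, which 7.85% of all genes and 3.85% of those up to 50 kb held. The median length of the entries was 4.08 kb. Neighbouring Hox genes share peaks, so the entries are not independent. The entries with a peak lie on chromosomes 2, 6, 11 and 15, which had 9.47 to 14.6 kept H3K4me3 peaks per Mb. The shares of all genes include chromosomes with far fewer. At Hoxb8 the shared KHcy peak held 49 reads (2.20-fold) and the H3K4me3 peak 80 reads (2.90-fold), and at Hoxd10 they held 38 reads (2.13-fold) and 128 reads (2.99-fold). Hoxb3 held 3 shared KHcy peaks with 103 reads and 3 shared H3K4me3 peaks with 392 reads.

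Receptor families of the nose, which are clustered and mostly silent outside sensory neurons, had starts in H3K4me3 only peaks at a lower share than all genes, and their counts in shared peaks were too small to be set against the background. Of 1113 olfactory receptor genes, 8 had the start in a KHcy only peak (0.719%, against 0.398% of all genes), 2 in a shared KHcy peak (0.180%, against 0.357%) and 23 in an H3K4me3 only peak (2.07%, against 4.83%). Of 328 vomeronasal receptor genes the counts were 1 (0.305%), 1 (0.305%) and 5 (1.52%). Of 371 zinc finger genes named Zfp they were 2 (0.539%), 1 (Zfp672) and 12 (3.23%). Reads may be divided between genes with closely similar copies, which was not tested for these genes.

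**Figure D4:**
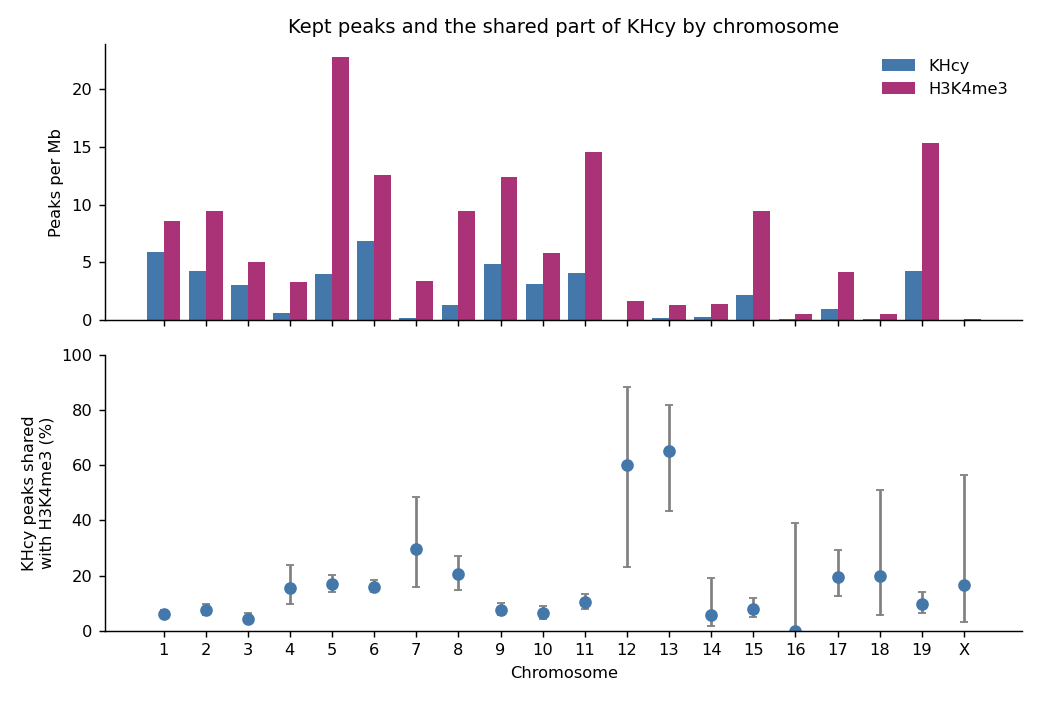
Upper panel, kept KHcy and H3K4me3 peaks per Mb of sequenced bases for each chromosome, and lower panel, the percentage of kept KHcy peaks that overlap an H3K4me3 peak, with 95% Wilson intervals (counting error only). The highest shares, on chromosomes 12 and 13, rest on 5 and 20 KHcy peaks, and chromosome 5 has the most H3K4me3 peaks per Mb (22.8).

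The peaks of both lists were unevenly spread over the chromosomes, and so was their overlap. Kept H3K4me3 peaks ran from 0.111 per Mb on chromosome X, 0.514 on 18 and 0.547 on 16 to 22.8 on 5. Kept KHcy peaks ran from 0.037 per Mb on chromosome X to 6.87 on chromosome 6. The shares given for all genes include the genes of the chromosomes with few peaks. The 5 chromosomes with the most peaks held 64% of the KHcy only peaks (1, 6, 2, 9 and 5), 66% of the shared KHcy peaks (6, 5, 1, 2 and 11) and 55.6% of the H3K4me3 only peaks (5, 6, 11, 2 and 1). Shared peaks were 16.9% of the KHcy peaks on chromosome 5 (14.1 to 20.1%) and 16% on chromosome 6 (13.9 to 18.4%), compared with 6.12% on chromosome 1 (4.87 to 7.68%) and 4.38% on chromosome 3 (2.89 to 6.61%). H3K4me3 peaks were denser on chromosome 5 (22.8 per Mb) and chromosome 6 (12.6) than on chromosomes 1 (8.59) and 3 (5.01), but the shares did not follow this density throughout. Chromosome 8 had the highest share among chromosomes with 100 or more KHcy peaks (20.4%, 14.9 to 27.2%) at 9.49 H3K4me3 peaks per Mb, whereas chromosome 9 had 7.55% at 12.4, chromosome 19 had 9.64% at 15.4 and chromosome 11 had 10.3% at 14.6. The part of density in these shares was not tested. On the 9 chromosomes with fewer than 100 KHcy peaks, 61 of 292 (20.9%, 16.6 to 25.9%) were shared, compared with 601 of 6063 (9.91%, 9.19 to 10.7%) on the other 11. On chromosome 13, 13 of 20 KHcy peaks were shared, and for 8 of these the nearest gene start was that of Prl2c3 or Prl2c2, members of a placental prolactin family with closely similar copies.

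Peaks rich in CpG followed the order of the groups seen at gene starts, whereas the median GC content was highest in H3K4me3 only peaks. The median GC content was 40.7% in KHcy only peaks (quartiles 37.7 and 43.9%), 43.9% in shared KHcy peaks (40.2 and 47.5%), 43.8% in shared H3K4me3 peaks (40.1 and 47.2%) and 45.1% in H3K4me3 only peaks (42.0 and 48.3%), with 41.4% in windows of 2000 bp over the genome. GC content of 50% or more was found in 17.1% of the shared KHcy (14.4 to 20.1%), 14% of the shared H3K4me3 (11.6 to 16.8%), 15.9% of the H3K4me3 only (15.3 to 16.4%) and 4.08% of the KHcy only peaks (3.59 to 4.62%). The observed over expected CpG ratio was 0.6 or more, as in CpG islands, in 82 shared KHcy peaks (12.4%, 10.1 to 15.1%), 51 shared H3K4me3 peaks (7.38%, 5.66 to 9.57%), 835 H3K4me3 only peaks (4.73%, 4.43 to 5.06%) and 49 KHcy only peaks (0.861%, 0.652 to 1.14%), compared with 0.691% of the genome windows. Among peaks with a gene start inside, the median ratio was 0.659 in shared KHcy peaks, 0.584 in shared H3K4me3 peaks, 0.539 in H3K4me3 only peaks and 0.523 in KHcy only peaks. Among peaks without one it was 0.170, 0.175, 0.183 and 0.156.

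**Figure D5:**
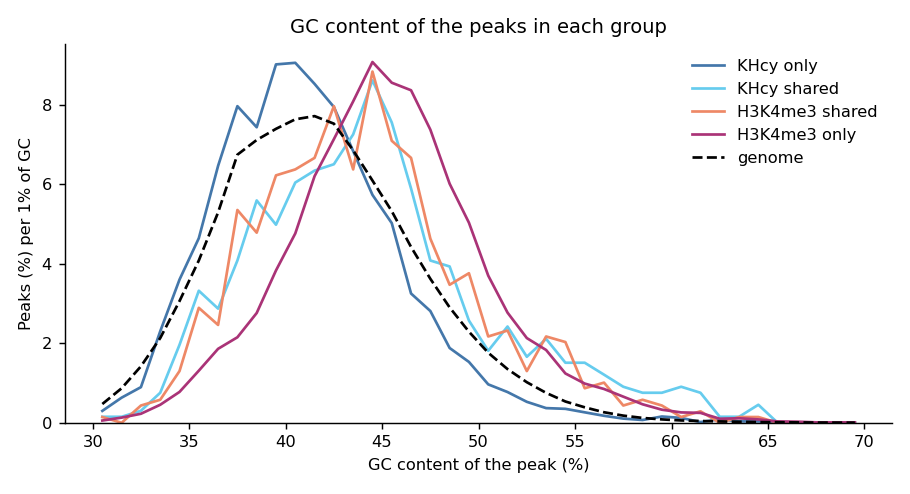
Distribution of the GC content of the peaks in each group, as the percentage of peaks per 1% of GC, with windows of 2000 bp over the genome as a dashed line. KHcy only peaks lie to the left of the genome line (median 40.7% against 41.4%) and H3K4me3 only peaks furthest to the right (45.1%). The medians of the shared groups lie between them. The right tail is longest in shared KHcy peaks, with a 90th percentile of 53.6%, against 51.7% in both H3K4me3 groups.

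Few peaks of any group lay in sequence that occurs repeatedly in the genome. More than 50% of the words of 31 bases around the centre had further copies elsewhere in 1.28% of the KHcy only (1.02 to 1.61%), 4.68% of the shared KHcy (3.32 to 6.57%), 5.50% of the shared H3K4me3 (4.03 to 7.46%) and 3.88% of the H3K4me3 only peaks (3.61 to 4.18%), compared with 14.8% of positions over the genome. Shared KHcy peaks were therefore in repeated sequence more often than KHcy only peaks, beside the differences at gene starts. At the named peaks over gene starts the share of repeated words was 0, except at Klrb1a (15.0%).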

How the data were processed

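ChIP-seq peak lists of NE4C cells were analysed, with 1 library each for KHcy, H3K4me3 and H3K79Hcy, grouped by the antibody named in the labels. The paper's counts of H3K79Hcy and H3K4me3 peaks differ from those of the deposited lists, 7387 and 19339. Its H3K79Hcy count is near the 7300 peaks of the list labelled KHcy. The labels were used as given, and the check at gene starts did not include the H3K79Hcy list. According to the methods, the authors aligned reads to mm9 with Bowtie 2 and called peaks with MACS (version 1.4.2 in the submitters' processing notes) against input, while a figure legend names SICER. For each peak the authors deposited the position, the length in bp, the count of reads, which is not scaled for depth or length, and a score. No header names the columns. Scores of peaks of 1 window of 200 bp follow a Poisson probability (minus its natural log) with 1 background per library, from which the background was solved (1.49 reads per 200 bp for KHcy from 8 peaks, 1.38 for H3K4me3 from 14 peaks). All peak starts and lengths were multiples of 200 bp, as from a caller that works in fixed windows. Fold enrichment is the reads per 200 bp divided by the background of the library, and it is not a ratio to input. Deeper libraries or other callers would move the number and width of peaks.

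The members and the gene lists were chosen with earlier results of these data known. Genes and their starts were taken from GENCODE M1 on the NCBIM37 (mm9) genome, and protein-coding genes were used. Positions are counted from 1. A CpG ratio is the observed number divided by that given by the C and G content. The genome carried no repeat masking, so the planned share of masked bases was replaced by the copies of 31-base words, taken every 10 bp in the 200 bp at the centre of the peak. Sequences were taken before the gene start rather than around it, which differs from the plan. Named genes were, for each group, those of the 6 highest scores over a start, the 4 highest scores in a gene and the 3 genes with most peaks, and members of the lists with a shared peak in the body or a KHcy peak over the start, up to 6 per list. Overlaps were tested on simulated data, in which 3000 differed from a direct count in 0 cases. Python 3.11.15 was used with numpy 2.4.6, pandas 2.3.3, scipy 1.17.1 and matplotlib 3.10.9. Alternatives were a stricter score, other definitions of overlap and removal, an H3K4me3 list of equal number and other gene sets. Input and HTL-treated libraries are not analysed here. An item of the marker list and a sequence chosen by the rule are not reported here.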

Additional observations from a re-analysis of the deposited data

How the results depend on the processing

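Under 9 alternatives, 106 of 156 values stayed within the main interval or within 1.5 times of a count, and 50 did not. In each of the alternatives that touch it, the share of peaks with a gene start was above that of H3K4me3 only peaks in both shared groups and lowest in KHcy only peaks. Where a value moved, the cause was not tested, except that fewer peaks remained by construction with a stricter score (at least ln 100 above the lowest) and with an H3K4me3 list of equal number. With the stricter score, 2250 KHcy only, 277 shared KHcy, 302 shared H3K4me3 and 10668 H3K4me3 only peaks were left. Of these KHcy only peaks 2.0% held a gene start, and of these H3K4me3 only peaks 6.89% did. Median widths were then 2400 bp for KHcy only, 2200 bp for shared KHcy, 2400 bp for shared H3K4me3 and 2200 bp for H3K4me3 only peaks, and median scores 27.9, 29.1, 34.9 and 30.5. Median reads per 200 bp were 3.45 for shared KHcy, 3.78 for shared H3K4me3 and 3.67 for H3K4me3 only peaks, and gene bodies with a peak numbered 845, 123, 128 and 2754 in the order of the widths. With an H3K4me3 list of equal number, 357 shared KHcy, 366 shared H3K4me3 and 6246 H3K4me3 only peaks remained, in the bodies of 140, 145 and 1683 genes. A gene start then lay in 1.92% of the KHcy only, 11.5% of the shared H3K4me3 and 7.72% of the H3K4me3 only peaks. Shared H3K4me3 and H3K4me3 only peaks had median reads per 200 bp of 3.89 and 3.77, widths of 2800 and 2600 bp and scores of 42.7 and 36.7. With no peaks removed, there were 1206 shared KHcy and 1196 shared H3K4me3 peaks, with median reads per 200 bp of 3.71 and 4.0 and scores of 26.4 and 36.0. Overlap of 50% of the shorter peak moved the median reads per 200 bp of shared H3K4me3 peaks to 3.76, and counting peaks up to 1000 bp apart as shared moved their median score to 27.5. Starts of all annotated genes lay in 2.25% of the KHcy only and 7.06% of the H3K4me3 only peaks. Within 1000 bp of the peak, a start was found for 2.79% of the KHcy only, 16.3% of the shared KHcy, 17.4% of the shared H3K4me3 and 15.0% of the H3K4me3 only peaks, so that the shared groups changed places and their intervals (13.7 to 19.3% and 14.7 to 20.4%) overlapped that of the H3K4me3 only peaks (14.4 to 15.5%), which ended the separation. Judging overlap against the whole other list, and counting gene bodies of all annotated genes, moved no value out of its limits. No paired analysis was possible because each antibody had 1 library and no test was run, and for the same reason no library could be left out. With 1 library each, counting intervals understate the error of every share.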
